A study of Homo sapiens with 9 samples.

Results

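The 2 RPE1 sets of a replication timing series were compared with each other: 6 of its 9 libraries, chosen as all 3 count columns of the set 1 table and all 3 of the set 2 table. RPE1 is a line of human retinal pigment epithelial cells immortalised with telomerase. Asynchronous cultures were pulsed with EdU, a thymidine analogue that enters DNA as it is copied, and sorted into early, mid and late S phase. The labels name no other treatment. The marked DNA was pulled down with streptavidin and read as single-end reads of 50 bases. Both sets used the same 3 library indices, 4 for early, 6 for mid and 12 for late S. All groups share the line and the pulse, and nothing in the labels says whether the sets came from separate cultures. The other 3 libraries are from HCT116, a colorectal carcinoma line. They serve as an outside ordering of the genome, and some of their values are given for context.

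Replication of the human genome follows a program. Gene-rich, open domains are copied first, and gene-poor domains near the nuclear lamina are copied last, with transition regions between them that forks cross one way. Sorting cells by DNA content and sequencing the DNA marked in each sorted fraction reads this program as the share of a region's label that falls in each fraction. Where the limits of the sort are set, and how much of the neighbouring fractions each one takes in, shapes all of these shares.

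The tables carry no column names, and the labels do not say which column holds which fraction. The columns are therefore called libraries A, B and C by position, B being the middle one (the fifth column of the table), and no library is called early, mid or late here. That a position holds the same fraction in both sets is an assumption. Reads of the 22 autosomes were summed in 50 kb windows, of which 53707 of 57633 had enough reads (2685 Mb). The libraries of a set were scaled to equal totals, and each window was described by the percentage of its scaled reads in A, B and C, the share. A set has 1 library at each position, so no test between sets was possible and no p-value is given. Spreads over windows or autosomes are spreads along the genome and not replicate error. The counting SD of a share, the error expected from the number of reads alone, is given in its place.

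One library stood apart in depth. Library B of set 1 had 6170299 reads, against 13867005 to 22930078 for the other 5, and a median of 106 reads in a window against 154 to 306. The root mean square counting SD of its share was 2.35 points (percentage points), against 1.35 to 1.95 for the others. With all 6 libraries thinned to its size the correlation of B between the sets was 0.661, against 0.677 with all reads.

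The libraries of set 1 separated the genome more sharply than those of set 2. In set 1 the leading library of a window, the one with the largest share, held on average 57.2% of scaled reads, with a median of 56.8%, a 5th percentile of 41.8% and a 95th of 71.9%. In set 2 it held 52.9%, with a median of 51.6% and the same percentiles at 41.2 and 66.8%. The largest share was higher in set 1 in 77.0% of windows. The mean over an autosome was higher in set 1 on 22 of 22, by 4.21 ± 0.69 points (SD over autosomes), from 2.99 points on chromosome 19 to 5.63 on chromosome 13. At least 70% of reads lay in 1 library in 5297 windows of set 1 (9.86%) and in 933 of set 2 (1.74%).

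The sets differed more at the low end of the shares. The smallest of the 3 shares averaged 12.5% in set 1 and 17.3% in set 2. It was below 5% in 12810 windows of set 1, or 23.9%, and in 0 windows of set 2. HCT116 had 0 such windows as well. All 12810 were windows in which C was the lowest library. Expressed as the effective number of libraries (2 to the power of the Shannon entropy of the shares, which is 3 when reads are spread evenly), the mean was 2.47 in set 1, 2.68 in set 2 and 2.71 in HCT116.

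Library by library, A had almost the same distribution in both sets, and C did not. The 1st percentile of the A share was 10.5% in set 1 and 10.5% in set 2, and the 99th was 72.6 and 71.4%. The C share ran from 2.37 to 74.2% between these percentiles in set 1 and from 12.2 to 65.9% in set 2. In HCT116 it ran from 11.7 to 67.6%, so the low floor of C was seen in set 1 and not in the other sets. A C share under 10% was found in 36.6% of windows in set 1, 0.0540% in set 2 and 0.130% in HCT116. Library B ran from 12.9 to 61.1% in set 1 and from 11.9 to 54.0% in set 2.

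**Figure D1:**
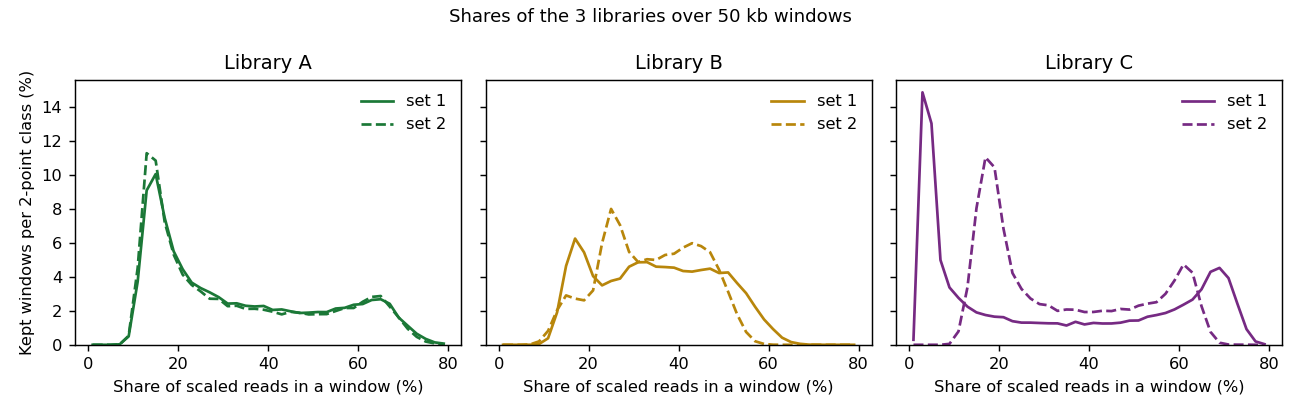
Distribution of the share of scaled reads (horizontal axis, percent) over 53707 windows for libraries A, B and C, in classes of 2 points, with set 1 as a solid and set 2 as a dashed line. The A curves lie on each other, the low peak of C lies near 4% in set 1 and near 17% in set 2, and the tallest peak of B lies near 17% in set 1 and near 25% in set 2.

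Where the sharper separation arose was read from the 47937 windows whose leader had the same letter in both sets. In the 18985 windows led by C, the C share averaged 63.2% in set 1 and 55.4% in set 2, and was higher in set 1 in 95.9% of them. The 14085 windows led by B had B shares of 50.3 and 46.8%. The 14867 windows led by A had A shares of 59.9 and 58.9%, and set 1 was higher in 60.2% of them. The gain of set 1 was thus largest in windows led by C, at 7.78 points, and smallest in those led by A, at 0.94 points.

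How much of the genome 2 libraries of a set covered in common was measured without shares, as the overlap of their read distributions over windows. It is 100% for identical distributions and does not depend on how libraries are scaled. A and C overlapped by 37.9% in set 1, 53.4% in set 2 and 56.0% in HCT116. B and C overlapped by 48.6% in set 1 and 73.0% in set 2. For A and B the order was turned, with 77.2% in set 1 and 67.1% in set 2. In set 1, B therefore lay closer to A than to C, and in set 2 it lay closer to C than to A. HCT116 had 77.6% for A and B and 65.3% for B and C, the order of set 1.

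Across the sets, A of set 1 and A of set 2 overlapped by 93.0%, B and B by 88.3% and C and C by 78.1%. C of set 1 overlapped A of set 2 by 34.2%, while A of set 1 overlapped C of set 2 by 56.7%. The higher overlap thus came with C of set 2, whichever A it was set against. The leader had the same letter in 89.3% of windows. Of the 5770 windows in which it had not, 2531 were led by B in set 1 and A in set 2, and 2799 by C in set 1 and B in set 2. The opposite changes were rare, with 252 windows led by A in set 1 and B in set 2, and 144 led by B in set 1 and C in set 2. With libraries scaled to equal totals, leaders therefore moved mostly 1 way. Which library leads depends on the scaling, and leaders were not counted with another. The 2531 windows were 14.5% of those led by A in set 2 and 15.1% of those led by B in set 1, and the 2799 were 16.3% of those led by B in set 2 and 12.8% of those led by C in set 1. Many were near ties, and both leads were at least 5 points in 669 of the 2531 and 909 of the 2799.

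By correlation, library B agreed least between the sets, whereas by overlap of reads C did, at 78.1% against 88.3% for B. Over windows, Pearson's r between the sets' shares was 0.985 for library A, 0.677 for library B and 0.977 for library C (Spearman's rho 0.973, 0.685 and 0.941, n = 53707 windows, which share their neighbours and are not independent). On single autosomes r of B lay between 0.587 on chromosome 16 and 0.756 on chromosome 18, while A was never below 0.978 and C never below 0.973. B of set 1 correlated with A of set 2 at 0.317 (rho 0.506), and B of set 2 with A of set 1 at -0.402 (rho -0.196). With C of the other set, B of set 1 correlated at -0.765 (rho -0.682) and B of set 2 at -0.053 (rho 0.066). In this measure B of set 1 leaned to A and away from C, while B of set 2 leaned away from A without leaning to C.

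Within each set the B share was repeatable. Each window was divided into its even and odd 1 kb bins, and the shares from both kinds of bin were compared. Within set 1 the even and odd bins gave an r of 0.940 for B, and within set 2 of 0.957. Even bins of set 1 against odd bins of set 2 gave 0.659, against 0.976 for A and 0.970 for C. The SD of the difference in B share was 9.96 points, 3.50 times the counting SD of 2.84 points, whereas that of A was 3.24 points, 1.37 times its counting SD. For C it was 9.84 points, 4.36 times its counting SD. The C libraries thus largely kept the order of windows at a changed scale, while the order by B differed.

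**Figure D2:**
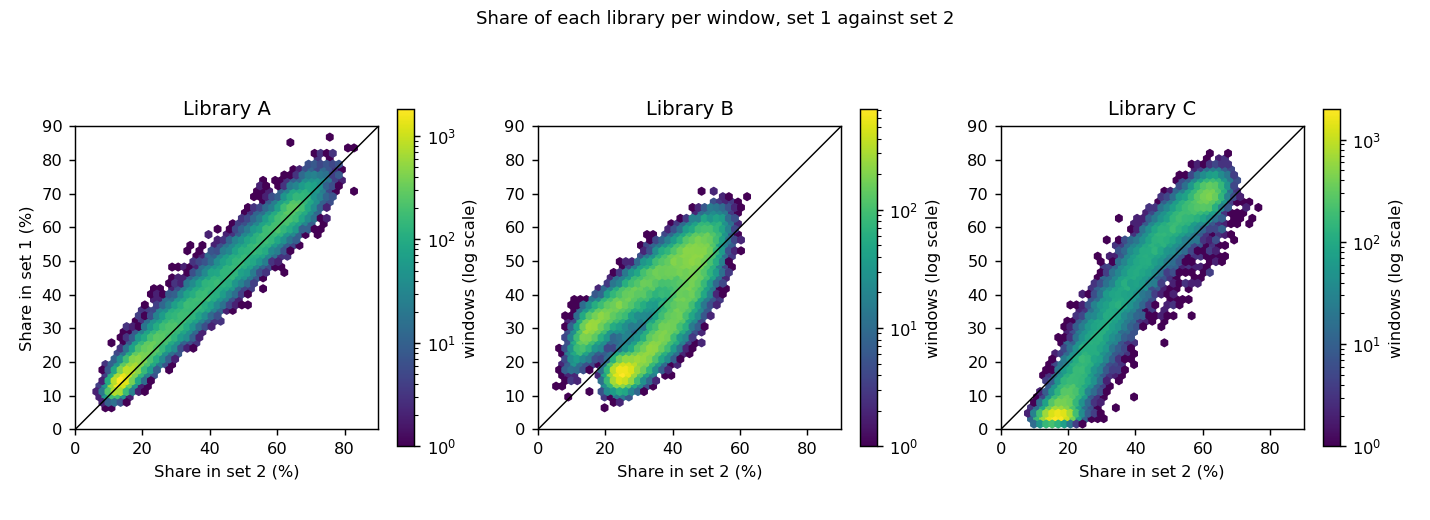
Share of each library in set 2 (horizontal, percent) against set 1 (vertical, percent) in 53707 windows, coloured by the number of windows on a log scale, with the line of equality. A lies along the line (r = 0.985), C is bent and steeper than the line (r = 0.977), and B falls into 2 arms on either side of the line that meet at high shares (r = 0.677).

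The B share was at least 10 points higher in set 1 in 14242 of 53707 windows (26.5%) and at least 10 points higher in set 2 in 8037 (15.0%), in all 41.5%. For C, set 1 was higher by that much in 12.6% of windows and set 2 in 32.3%, in all 44.8%. For A, the figures were 0.711 and 0.0801%, in all 0.791%. The split between the directions for B depends on the scaling: with libraries scaled to equal medians instead of equal totals it was 11.7% with set 1 higher and 34.3% with set 2 higher, and without scaling it was 0.035 and 55.7%. The absolute level of the B difference is therefore a matter of scale, and its change along the genome is what the counts bear on.

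That change followed the place of a window between A and C. Windows were ordered by A share minus C share and divided into 20 classes of equal size, class 1 being the A end and class 20 the C end. Each set was ordered by the other, so that no set was ranked on its own counts. A class thus need not hold the same windows in both sets. In class 1, set 1 had 68.0% of reads in A, 28.5% in B and 3.46% in C. Set 2 had nearly the same A share in its own class 1, 68.1%, but 14.7% in B and 17.3% in C. In the windows that made up class 1 of set 1, set 2 had 69.0% in A, 15.5% in B and 15.5% in C. In class 20, set 1 had 13.0, 16.6 and 70.5% in A, B and C, and set 2 had 12.2, 25.6 and 62.2%. A thus took nearly equal parts in both sets at either end, and the remainder was divided differently between B and C.

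The B share of set 1 rose to 51.9% in class 8 and was 12.0 points higher at the A end than at the C end. In set 2 it rose to 47.4% in class 10, and the A end minus the C end was -10.9 points. The tails of B were thus tilted in opposite directions. With both sets on 1 common order, the highest B class lay nearer the A end in set 1 each time, at class 9 against 10 on the axis of set 1, 8 against 10 on that of set 2, 7 against 11 on that of HCT116 and 9 against 10 on that of the even bins. The curves met near class 11, where B held 46.6% in set 1 and 46.6% in set 2. The C share of set 1 was below 5% in classes 1 to 5, and that of set 2 stayed between 16.9 and 18.0% in classes 1 to 7.

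The difference holds both sets, so on the axis of either set it was ordered in part by its own counts. On the axis of set 2, set 1 minus set 2 in B was 13.0 ± 3.8 points (SD over 2686 windows) in class 1 and -7.32 ± 3.57 in class 20. On this axis it was lowest in class 16, at -9.75 ± 3.52. On the axis of set 1 it was 11.5 ± 3.2 points in class 1 and lowest in class 20, at -10.2 ± 3.1. Ordered by HCT116, which shares no library with either set, the difference was 11.3 ± 4.9 points in class 1 and lowest in class 20, at -7.88 ± 4.91. The 20 classes took up 83.9% of the variance of the B difference on the axis of set 2, 84.8% on that of set 1 and 55.4% on that of HCT116. With the order taken from even bins and the difference from odd bins, they took up 78.5%. After class means were taken away in a further order, not among those above, the SD of the difference was 3.90 points. It was 9.96 points before, with a counting SD of 2.84 points.

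**Figure D3:**
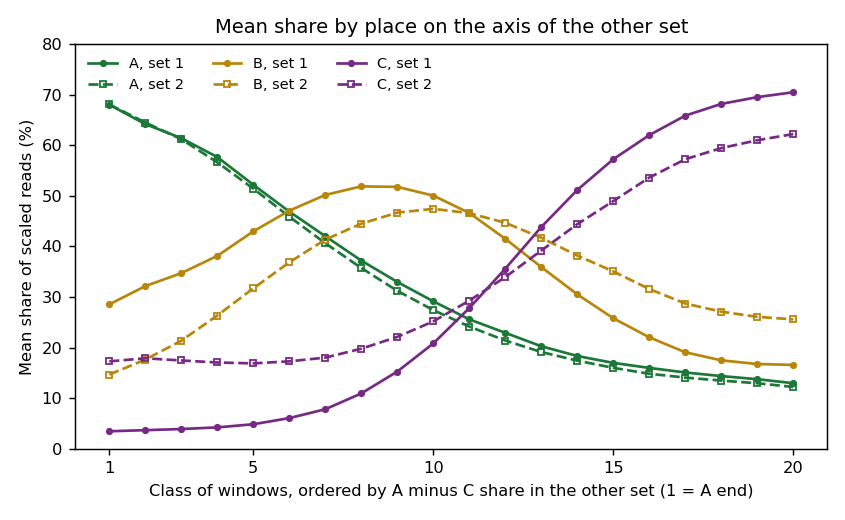
Mean share of A, B and C (vertical, percent) in 20 classes of windows ordered by A share minus C share in the other set (horizontal, 1 = A end), with set 1 as solid lines with filled points and set 2 as dashed lines with open squares. The A lines coincide, C of set 1 falls to 3.46% at the A end where C of set 2 has 17.3%, and B of set 1 is above B of set 2 on the A side and below it on the C side.

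Shares of a set add up to 100%, so a change in 1 library moves the others. Read density, the reads of a library in a class relative to its own mean over all windows, does not have this property. With windows ordered by both sets together, B had a density of 0.842 in set 1 and 0.435 in set 2 at the A end, a ratio of 1.94. At the C end it had 0.537 and 0.616, a ratio of 0.871. Relative to the C end, B of set 1 was thus 2.22 times as dense at the A end as B of set 2. While the classes are held fixed, no scaling of libraries changes this value. The order of windows itself rests on scaled shares and was not redone with another scaling. For C the densities at the A end were 0.108 and 0.478, a ratio of 0.226, and at the C end 2.43 and 1.63. For A the ratio was 1.07 at the A end and 1.40 at the C end, where densities were 0.407 and 0.292. Counting A and B alone, B took 27.9% of their scaled reads at the A end in set 1 and 17.7% in set 2, and the B difference at this end was therefore present without library C.

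Each library was also written as a sum of the libraries of the other set with weights of 0 or more, fitted to the shares by least squares. A of set 1 was close to A of set 2, with a weight of 0.996 for it and at most 0.023 for the others (97.1% of variance). B of set 1 took 0.766 of B of set 2 and 0.314 of A of set 2, with 0 for C (76.8% of variance). B of set 2 took 0.770 of B of set 1 and 0.233 of C of set 1, with 0 for A (77.7%). On single autosomes the weight of A in B of set 1 ran from 0.254 to 0.440, and that of C in B of set 2 from 0.209 to 0.280. C of set 2 took 0.801 of C of set 1, 0.205 of A and 0.049 of B (96.1%). The reverse sum gave C of set 1 only C of set 2, at 1.04, and reached 85.6% of variance. In this fit B of set 1 took a part of A besides B, and B of set 2 a part of C. The size of these parts depends on the scaling: without it, the weight of A in B of set 1 was 0.186, that of A in C of set 2 was 0.120 and that of C in B of set 2 was 0.259. C of set 2 was fitted from set 1 more closely than C of set 1 from set 2. Weights of 0 or more can raise a low floor of C but cannot lower a higher one. The fit itself thus favours this order, and nothing further is drawn from it.

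The disagreement of B was regional, and so was that of C. The B difference in a window correlated with that of the next window at r = 0.882, at 0.509 over 500 kb and at 0.125 over 2 Mb. These values were 0.902, 0.542 and 0.156 for C, and 0.294, 0.114 and 0.062 for A. Runs of at least 5 adjacent windows with B at least 10 points higher in set 1 numbered 940 and covered 450 Mb, with a median length of 400 kb. In the other direction there were 200 runs over 62.8 Mb, with a median of 300 kb. How many runs and windows fall in each direction rests on the level of the B difference, which depends on the scaling. Runs were not counted with another scaling. Windows with B higher in set 1 were led by A in set 2 in 87.1% of cases, and in set 1, where B is the higher value, by A in 73.9% and by B in 26.1%. Over all windows A led 32.4% in set 2 and 28.2% in set 1. Windows with B higher in set 2 were led by C in 99.3% of cases in set 1 and in 87.0% in set 2, where B led 13.0%, against 40.6 and 35.7% led by C over all windows. A leader read in the set with the lower B is less often B by construction. Of all windows led by A in set 2, 71.2% had B at least 10 points higher in set 1, and of those led by C, 36.5% had B that much higher in set 2.

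The longest run with B higher in set 1 lay on chromosome 10 from 73550001 to 76000000 (hg19), 2450 kb long. Set 1 had 36417 reads there in A, 8482 in B and 2182 in C, which after scaling were 63.1, 33.4 ± 0.27 (counting SD) and 3.51%. Set 2 had 58370, 11105 and 11156 reads, or 64.1, 17.8 ± 0.15 and 18.1%. A differed by less than 1 point, while B was higher and C lower in set 1. HCT116 had 57.0, 25.9 and 17.2% in the same stretch, with B between the values of the RPE1 sets. The window differences ran from 11.5 to 21.0 points.

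The next runs had the same make-up. On chromosome 1 from 150000001 to 151950000, B held 32.6 ± 0.34% in set 1 and 17.8 ± 0.19% in set 2, and C held 3.78 and 18.9%. On chromosome 3 from 47050001 to 49000000, B held 31.3 ± 0.33 and 16.5 ± 0.18%. The run on chromosome 20 from 32650001 to 34550000 had 31.0 ± 0.34 and 15.5 ± 0.19%. All of these had over 60% of reads in A in both sets. The fifth, on chromosome 10 from 69450001 to 71100000, had 35.4 ± 0.32 and 20.5 ± 0.18% in B with 60.9 and 61.1% in A.

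The longest run with B higher in set 2 lay on chromosome 14 from 25850001 to 26800000. Set 1 had 1932, 1231 and 10937 reads in A, B and C, or 13.0, 18.8 ± 0.45 and 68.2%. Set 2 had 2754, 4466 and 7440 reads, or 13.6, 32.1 ± 0.39 and 54.3%. Here too A was the same to within 1 point, and B gained in set 2 what C lost. HCT116 had 18.5% in B and 64.6% in C, nearer to set 1.

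Of the other runs in this direction, that on chromosome 3 from 142950001 to 143700000 had 24.6 ± 0.58% of reads in B in set 1 and 37.8 ± 0.46% in set 2. The stretch of chromosome 12 between 4850001 and 5550000 had B shares of 16.6 ± 0.50 and 29.8 ± 0.45%. It was led by C in both RPE1 sets, with 69.1 and 57.1%, and by B in HCT116, with 51.3%. The run on chromosome 10 from 119650001 to 120250000 had 23.6 ± 0.52 and 37.7 ± 0.41% in B. The last, on chromosome 5 from 7400001 to 8000000, had 17.8 ± 0.57 and 30.4 ± 0.49%. In each of these 10 runs the B shares lay apart by many times their counting SD, and the runs were named for that difference.

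**Figure D4:**
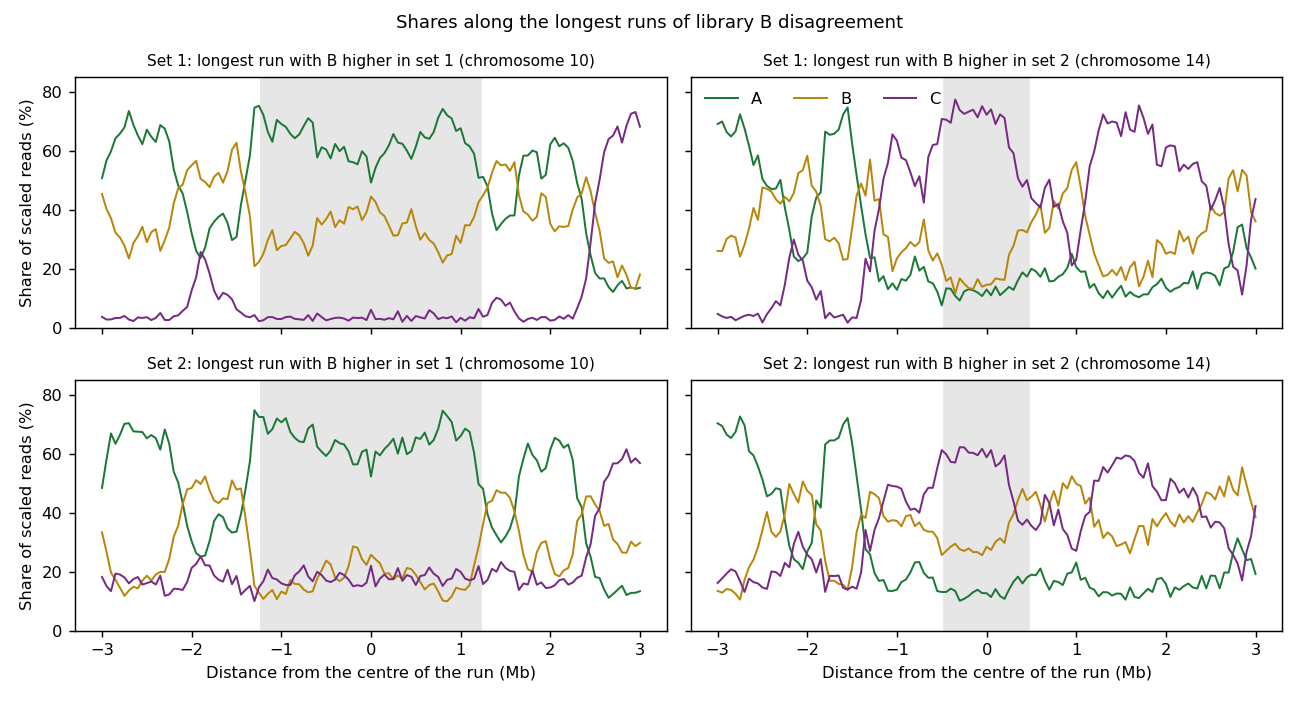
Shares of A, B and C (vertical, percent) in 50 kb windows over 3 Mb on either side of the centre of the longest run with B higher in set 1 (left, chromosome 10) and in set 2 (right, chromosome 14), with set 1 above and set 2 below and the run shaded. On the left A is alike in both sets while B is well above C in set 1 and level with it in set 2, and on the right B is higher and C lower in set 2.

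Between a stretch led by A and one led by C the timing program passes through a transition region. Crossings were placed where A and C shares were closest, between such stretches of at least 5 windows that lay at most 20 windows apart. Of 635 crossings located in set 2, 601 had complete flanks of 20 windows, and of 633 located in set 1, 597 did. At crossings located in set 2, B of set 1 averaged 41.4% at 500 kb to the A side, rose to 50.7% at 50 kb to the A side and was 24.7% at 500 kb to the C side. B of set 2 had 31.0, 47.0 and 32.9% at the A side, the crossing itself and the C side. B was higher on the A side than on the C side at 89.4% of these crossings in set 1 and at 43.4% in set 2. At those located in set 1 it was so at 77.6% in set 1 and 30.2% in set 2.

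At the same crossings the mean peak of B lay 1 window (50 kb) nearer the A side in set 1 than in set 2, at -100 against -50 kb for those located in set 1 and at -50 against 0 kb for those located in set 2. With each set read at the crossings of the other, the mean peak was at -50 kb in both. In that reading the median place of the highest B at single crossings was -100 kb in set 1 and -50 kb in set 2. The highest B lay on the A side at 81.5% of crossings in set 1 and 53.1% in set 2. The peak of B was higher in set 1, with 50.7 against 47.0% and 50.4 against 46.6%. The distance over which C passed through the middle 50% of its range was 147 kb in set 1 and 158 kb in set 2 at crossings located in set 1. At those located in set 2 it was 161 and 167 kb. Set 1 was thus narrower by less than 1 window at the same crossings, while each set read at the crossings of the other gave 161 kb for set 1 and 158 kb for set 2. For A these distances were 184 and 181 kb, and 180 and 170 kb, with set 1 wider. The levels of C differed on both sides. At crossings located in set 2, C held 7.87% in set 1 and 18.8% in set 2 at 500 kb to the A side, and 57.7 and 50.5% at 500 kb to the C side. At those located in set 1 it held 6.29 and 18.3%, and 52.6 and 47.1%.

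**Figure D5:**
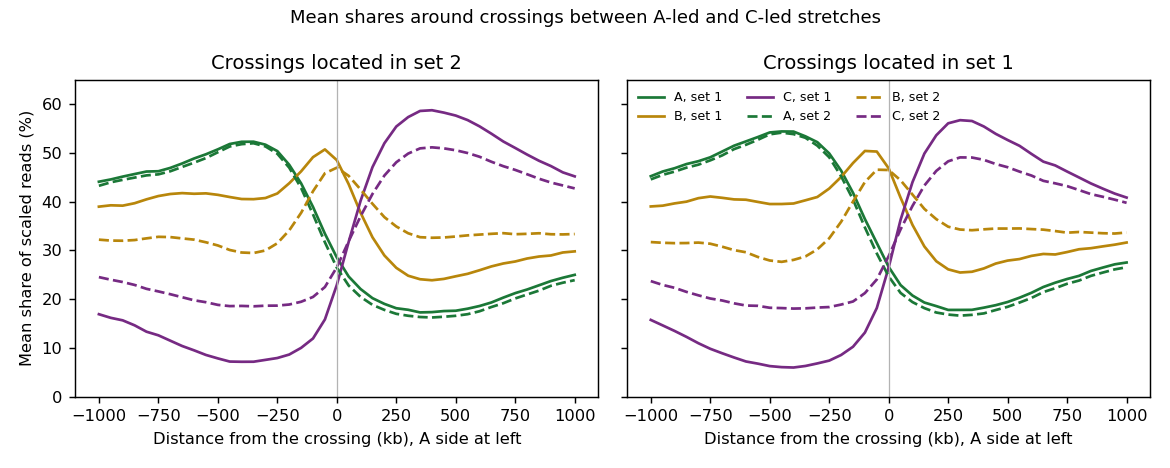
Mean share of A, B and C (vertical, percent) by distance from crossings between A-led and C-led stretches (horizontal, kb, A side at left), for 601 crossings located in set 2 and 597 located in set 1, with set 1 as solid and set 2 as dashed lines. The A lines nearly coincide, B of set 1 is higher on the A side than on the C side in both panels, and B of set 2 has 31.0 and 32.9% at 500 kb on the A and C sides at crossings located in set 2 and 27.9 and 34.5% at those located in set 1.

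Whole chromosomes differed as well. The mean B difference, set 1 minus set 2, was highest on chromosome 17, at 6.60 points, followed by chromosome 22, at 6.11, and chromosome 19, at 5.71, and lowest on chromosomes 13 and 18, at -2.27 and -2.25 points. It was above 0 on 17 of 22 autosomes, a count that rests on the level of the difference and so on the scaling. On chromosome 17, B held 34.4% in set 1 and 27.8% in set 2, and C held 17.3 and 25.8%. On chromosome 13, B held 34.1 and 36.4%, and C held 40.6 and 38.7%. The C difference was lowest on chromosome 19, at -9.02 points, and highest on chromosome 13, at 1.82. The A difference was above 0 on all 22 autosomes, from 0.36 points on chromosome 3 to 3.32 on chromosome 19.

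Across autosomes the B difference went with the number of protein-coding genes per Mb, which ran from 2.93 on chromosome 13 to 24.5 on chromosome 19, with r = 0.732 and rho = 0.823 (n = 22 autosomes that share all 6 libraries). Without chromosomes 17 and 19, the farthest from the median gene density, r was 0.716. For C, r was -0.791, and -0.731 without these. For A it was 0.794, and 0.528 without these. Gene counts are of the GRCh38.p14 assembly of RefSeq and lengths of hg19, and no gene was placed within a chromosome.

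No source used here gives the positions of the sort gates. Several measurements bear on the sorts. A shares were nearly equal between the sets. The density of A, set 1 over set 2, nevertheless ran from 0.858 in class 8 to 1.40 at the C end. B shared more with A in set 1 and more with C in set 2. In class 1, each set ordered by the other, C of set 2 held 17.3% of scaled reads and C of set 1 held 3.46%. The part of gate position, of purity of the fractions and of the pull-down in these differences was not tested.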

How the data were processed

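The authors deposited read counts as whole numbers per 1 kb bin; the column totals differ, so they were not scaled to a common total. The submitters' processing notes name the build hg19 and the tools bedtools 2.25, SAMtools 1.2 and Bowtie2 without their roles. Table names in the labels point to removal of duplicates by a method that no source used here states. Autosomal bins were added up in windows of 50 kb, and those with reads in 25 bins or more, 50 reads over the RPE1 libraries and 30 in each set were kept. Libraries were scaled to equal totals over kept windows, with no pseudocount. Counting SDs assume Poisson counts and cover counting error only. Named regions are the 5 longest runs of at least 5 windows with a B difference of at least 10 points in each direction, ties going to the larger mean difference, with the autosomes of highest and lowest mean difference. The comparison, its measures and thresholds were chosen with earlier results of these data known. The functions were tested on simulated data. Read density, the even and odd bin order, the residual runs, gene density and bin texture were added after seeing the data. Python 3.11.15, numpy 2.4.6, pandas 2.3.3 and scipy 1.17.1 were used.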

Additional observations from a re-analysis of the deposited data

How the results depend on the processing

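Of 136 alternative values for 22 results, 112 stayed within the spread (the SD of both sets, the SD over autosomes or windows, 1 window for a place, or 1.5 times for counts), 24 moved and 0 reversed. Only a change of sign counted as reversed, so results that cannot be negative, such as counts and percentages, could not receive that label. With equal medians or no scaling, more windows had B higher in set 2 than in set 1, the opposite of the order as reported. The overlaps of libraries and the height and place of the B peak, each set read at the crossings of the other, did not move under any alternative run for them. That is a weak check. Overlaps do not depend on scaling, so the scaling alternatives could not move them. The spread for overlaps and peak heights was the SD of both sets, which is as wide as the sets lie apart allows. Crossings were not run with another scaling. Equal medians gave a mean largest share of 60.5% in set 1, a correlation of B of 0.608, B higher in set 1 in 11.7% and in set 2 in 34.3% of windows, a weight of 0.268 for A in B of set 1 and of 0.187 for A in C of set 2. Without scaling these were 64.7%, 0.556, 0.035%, 55.7%, 0.186 and 0.120, the weight of C in B of set 2 was 0.259, and the B difference was 3.30 points at the A end and -15.6 at the C end. Scaling multiplies each library by another factor, which moves all shares by construction. With 20 kb windows the weight of A in C of set 2 was 0.192; the cause was not tested. A threshold of 5 points gave 41.8 and 36.6% of windows with B higher in set 1 and set 2, and 20 points gave 0.585 and 0.030%. Runs of at least 3 windows numbered 1580 and 874, and of at least 10 windows 337 and 10. With 1 library per position and set, no replicate could be left out. No paired analysis was possible because no result came from a test.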

Other observations

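After the mean of its axis class was taken away, the B difference still reached 10 points in 353 windows with set 1 higher (0.657%) and 359 with set 2 higher (0.668%). Runs of at least 5 windows with a remainder of at least 5 points numbered 14 over 3.85 Mb and 17 over 4.80 Mb. The longest with set 1 above its class was on chromosome 12 from 37950001 to 38400000, where B held 27.0% in set 1 and 25.6% in set 2. Its class as a whole had a lower B share in set 1. The next were on chromosome 5 from 49400001 to 49700000, with 32.4 and 29.8%, and on chromosome 19 from 24350001 to 24650000, with 24.2 and 24.1%. The longest with set 2 above its class were on chromosome 1 from 208200001 to 208600000, with 32.9% in set 1 and 37.6% in set 2, and on chromosome 2 from 218100001 to 218450000, with 26.3 and 42.3%. These stretches were chosen by their difference.

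Below the size of a window, all 3 positions differed between the sets, in directions that depended on the library and the windows. The excess of the variance between 1 kb bins over that of even coverage, divided by the squared mean, takes the depth of a library into account. In 18983 windows led by C in both sets it was 0.037 for C of set 1 and 0.103 for C of set 2. In 14085 windows led by B in both sets it was 0.099 and 0.251, and in 14867 led by A it was higher in set 1, at 0.530 against 0.397. For A and B it was higher in set 1 in all 3 kinds of window, for example 0.339 against 0.162 for A and 0.094 against 0.049 for B in windows led by B, and 0.164 against 0.086 for B in windows led by C. The excess covariance of C with library A of the other set, scaled in the same way, was 0.032 in set 1 and 0.148 in set 2 in the windows led by C, and 0.047 and 0.220 in those led by B. In those led by A it was 0.106 and 0.180. These values set the C libraries against different A libraries. With library A of the same set, the covariance of C was 0.037 in set 1 and 0.135 in set 2 in windows led by C. It was 0.075 and 0.146 in those led by B, and 0.131 and 0.159 in those led by A. Bins with over 10 times the median reads were left out of these values, and no explanation was tested.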
